A study of Mus musculus with 8 samples.

Results

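The heart is built under the control of a small set of transcription factors, and the transcripts of 10 of them were compared between wild-type (WT) and Tafazzin-mutant hearts: the GATA zinc-finger factors Gata4 and Gata6, the homeobox factor Nkx2-5, the T-box factors Tbx5 and Tbx20, the basic helix-loop-helix factors Hand2 and Hey2, the MADS-box factors Mef2a and Mef2c, and the Iroquois homeobox factor Irx4. They were chosen by name as factors of the heart and matched by Ensembl ID, which gave 10 of the 55471 gene rows counted. All 10 passed the filter on low counts and were among the 15084 genes tested. Small pieces of heart were taken at 14 weeks from 4 WT mice and 4 TAZG197V mice, and each piece gave 1 RNA-seq library of single-end 50-base reads. TAZG197V mice carry a patient-derived missense change in Taz, the X-linked gene of the cardiolipin-remodelling enzyme Tafazzin. The change was knocked in by CRISPR/Cas9 in C57BL/6N zygotes, so every tissue carries it, and founders were crossed to C57BL6/J. The results of the study describe the mutants as hemizygous males, while its methods and the labels speak of homozygous offspring. The methods call the replicates biological. Neither group received a treatment.

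In the embryo many of these factors bind neighbouring sites in cardiac enhancers. They regulate one another and the genes of the contractile and conduction machinery, some mainly as activators and others, such as Hey2, as repressors. In the adult heart muscle cell many of them stay expressed and keep up the genes of the sarcomere, the ion channels and the calcium stores. GATA4 and MEF2 proteins are also known as effectors of hypertrophic signals, while Irx4 and Hey2 mark the working muscle of the ventricle.

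Total counts were 23055689 to 36301031 per library. The edited gene Taz was lower in TAZG197V, with a log2 fold change of -0.37 (SE 0.0551, edgeR adjusted p = 0.00124) and no overlap between genotypes. Heart muscle markers were abundant in every library, at a summed 51486 to 57306 CPM, counts scaled to library size, in WT and 42598 to 47649 in TAZG197V. A gene was called when its edgeR adjusted p was under 0.05, its log2 fold change was beyond 0.20 either way and its mean scaled count was at least 50. By that rule 33.5% of all genes tested were called, 18.5% higher and 15.1% lower, and of the 6 heart muscle markers 3 were called lower. Some libraries stood apart. WT 2 had a summed 1219 CPM of 8 atrial markers, where the other 7 libraries had 28.4 to 148.2, and WT 4 had 55072 CPM of 6 red cell markers against 227.3 to 1065 elsewhere. Brain markers, 6 genes that heart muscle barely expresses, summed to 107.4 CPM in WT 4 and 244.02 in TAZG197V 4 against 11.4 to 17.2 in the other 6. None of the 8 atrial, 6 red cell and 6 brain markers was at 0 in all libraries. Called lower were 3 of 6 atrial markers tested, 2 of 6 endothelial, 3 of 6 fibroblast, 6 of 6 red cell, 1 of 2 adipocyte and 4 of 5 smooth muscle and pericyte markers. The fifth of that last list and 1 of 4 brain markers tested were called higher, and 1 brain marker lower. No ventricular, endocardial, epicardial or macrophage marker was called, of 4 in each list. In these bulk samples fewer cells of a type and less RNA per cell cannot be told apart.

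**Figure D1:**
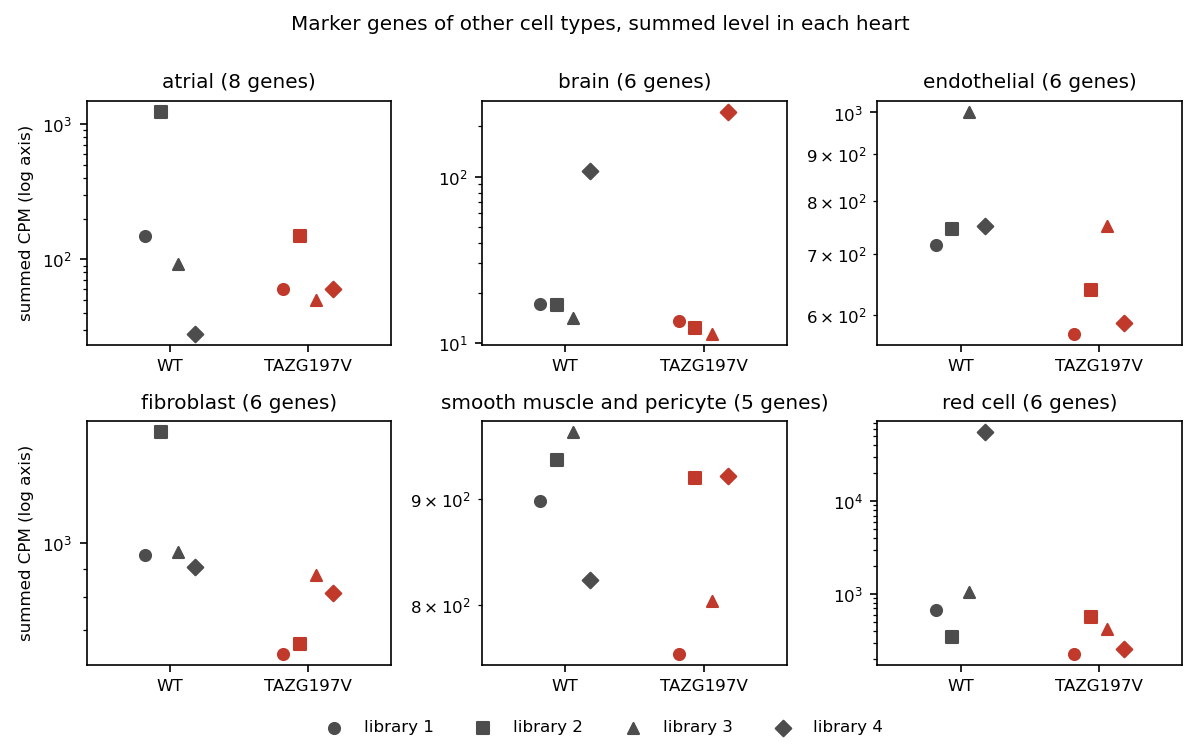
Summed level of the marker genes of 6 cell types in each library, in CPM on a log axis, with WT in grey, TAZG197V in red and the library number as the symbol. WT 2 stands high for atrial and fibroblast markers, WT 4 for red cell markers and both number 4 libraries for brain markers.

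Of the 10 factors, 3 were lower in TAZG197V hearts: Tbx5, Mef2c and Irx4, with log2 fold changes of -0.60, -0.49 and -0.34. The other 7 did not pass, with values from -0.22 for Hey2 to 0.10 for Nkx2-5. Of all genes tested 33.5% were called in either direction, near the 30% of the 10 factors. Called lower were 15.1% of all genes tested, below that 30%. With 10 genes and no test of the set, the count is not a result about the set. The median log2 fold change of the 10 was -0.07, and over all genes tested it was -0.01. In the same 3 factors every TAZG197V library lay below every WT library, which held for 13.9% of all genes tested, while 33.2% had no overlap in either direction. Under 18 other fits, among them those that leave out each library in turn, the same 3 factors were the ones with an adjusted p under 0.05 each time.

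**Figure D2:**
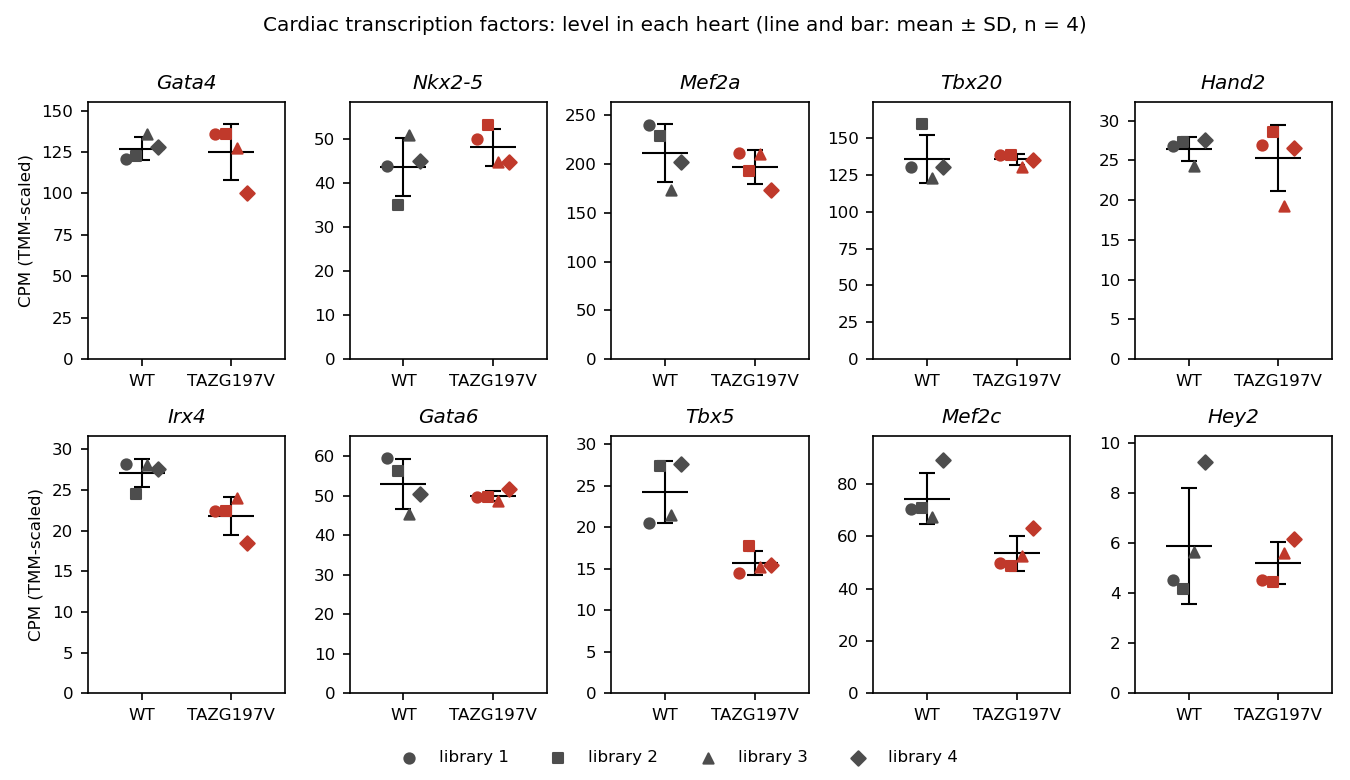
Level of each factor in the 8 libraries, as CPM after TMM scaling with the axis from 0 (line and bar: mean ± SD, n = 4). The red TAZG197V points lie below all grey WT points for Tbx5, Mef2c and Irx4 and among them for the other 7 factors, apart from single libraries.

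**Figure D3:**
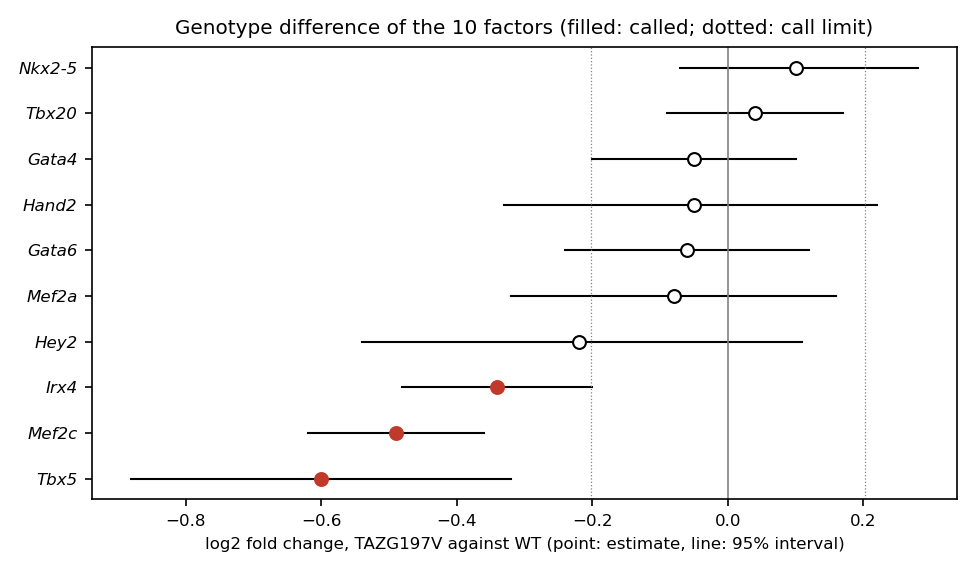
Log2 fold change of each factor, TAZG197V against WT, with its 95% interval. The intervals of Tbx5, Mef2c and Irx4 lie below 0 and those of the other 7 factors span it.

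Gata4 (ENSMUSG00000021944, chromosome 14, 63198922 to 63271692, minus strand, mm10 as for all positions) encodes a pioneer factor that opens cardiac enhancers and partners with NKX2-5 and TBX5. It was 120.7 to 136.1 CPM in WT and 100.2 to 136.2 in TAZG197V. Only TAZG197V 4, at 100.2, fell outside the WT range on the low side. The log2 fold change was -0.05 (SE 0.0669, 95% interval -0.20 to 0.10, edgeR adjusted p = 0.57). Gata6 (ENSMUSG00000005836, chromosome 18, 11052064 to 11085635, plus strand) shares much of the DNA binding of Gata4 and acts also in vessels and outflow tract. Its levels were 45.5 to 59.7 CPM in WT and 48.7 to 51.7 in TAZG197V, all within the WT range, with a log2 fold change of -0.06 (95% interval -0.24 to 0.12, edgeR adjusted p = 0.59). Of its 6508 exon bases 93 overlap the noncoding gene 1010001N08Rik, which had a log2 fold change of -0.06 and was not called. Taken per kilobase of exon, Gata4 made up 79.9% ± 2.74 (SD, n = 4) of the summed Gata4 and Gata6 level in WT and 80.4% ± 2.74 (SD, n = 4) in TAZG197V, and the genotypes overlapped. Gata5, the third cardiac GATA gene, had 5 to 58 counts per library in WT and 4 to 9 in TAZG197V. It did not pass the filter on low counts, and its highest WT values were in WT 1 and WT 2.

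Nkx2-5 (ENSMUSG00000015579, chromosome 17, 26838664 to 26845009, minus strand) encodes the homeobox protein needed for looping of the heart tube and for the conduction system. It was 34.9 to 50.8 CPM in WT and 44.6 to 53.1 in TAZG197V. The lowest value came from WT 2, and TAZG197V 2 was the only mutant library above all WT libraries. The log2 fold change was 0.10 (SE 0.0764, 95% interval -0.07 to 0.28, edgeR adjusted p = 0.321), and it ran from 0.03 to 0.22 in the other fits, with the smallest adjusted p at 0.0701. Its relatives Nkx2-3 and Nkx2-6 had 0 counts in every library.

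Tbx5 (ENSMUSG00000018263, chromosome 5, 119832668 to 119885219, plus strand) showed the largest difference of the 10. It encodes the T-box activator that is mutated in Holt-Oram syndrome and that drives atrial, left ventricular and conduction genes. It was 20.5, 27.4, 21.5 and 27.6 CPM in WT 1 to WT 4 and 14.5, 17.8, 15.2 and 15.5 CPM in TAZG197V 1 to 4. The highest mutant library, TAZG197V 2, was thus below the lowest WT library, WT 1. The means were 24.3 ± 3.78 and 15.7 ± 1.44 CPM (SD, n = 4 per genotype here and in all later pairs of means). In the fit, which corrects for surrogate variables as the CPM do not, the fall was 34.2%, a log2 fold change of -0.60 (SE 0.123, 95% interval -0.88 to -0.32, edgeR adjusted p = 0.00575). Within lane 7 the mean log2 difference was -0.56 and within lane 8 it was -0.67, each with 2 libraries per genotype. The factor is typical of atrial muscle, and WT 2, with the high atrial marker sum, was among its higher libraries. Other WT libraries did not follow that order. WT 4, the highest for Tbx5, had an atrial marker sum of 28.4 CPM, and WT 1, the lowest WT library for Tbx5, had 148.2. The part of atrial tissue in the Tbx5 difference was not tested. Without WT 2 the log2 fold change was -0.55 (edgeR adjusted p = 0.00772), and without WT 2 and both number 4 libraries it was -0.43 (0.0162).

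Tbx20 (ENSMUSG00000031965, chromosome 9, 24718138 to 24774303, minus strand), a T-box protein that acts both as activator and repressor and is needed in the adult heart muscle cell, did not follow Tbx5. It was 123 to 159.7 CPM in WT and 130.2 to 138.3 in TAZG197V, with the mutant libraries inside the WT range. The log2 fold change was 0.04 (SE 0.0584, 95% interval -0.09 to 0.17, edgeR adjusted p = 0.619). Of the summed per-kilobase level of both genes, Tbx5 held 31.4% ± 2.72 in WT and 22.9% ± 1.51 in TAZG197V, with no overlap between genotypes. Among the other T-box genes Tbx3, a repressor of the working muscle programme in the conduction system, fell from 11.1 ± 3.2 to 7.22 ± 0.827 CPM, at a log2 fold change of -0.51 (SE 0.135, edgeR adjusted p = 0.0179). Of its 6624 exon bases 115 overlap Tbx3os1. Its WT level was highest in WT 2, at 15.4 CPM, and the call was lost without TAZG197V 1, 2 or 3, with adjusted p-values of 0.0533, 0.0506 and 0.0573. Tbx2 (-0.12, adjusted p = 0.451) and Tbx18 (0.15, adjusted p = 0.435) were not called. Without both number 4 libraries Tbx2 was called lower, at -0.36 (adjusted p = 0.0403). For Tbx18, 970 of 4718 exon bases overlap the noncoding gene D030062O11Rik, and the value is uncertain for that reason.

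Hand2 (ENSMUSG00000038193, chromosome 8, 57320983 to 57324633, plus strand) encodes a basic helix-loop-helix factor of the right ventricle and the sympathetic nervous system. It was 24.3 to 27.5 CPM in WT and 19.3 to 28.6 in TAZG197V, where TAZG197V 3 was low and the other libraries lay at 26.6 or above. The log2 fold change was -0.05 (SE 0.121, 95% interval -0.33 to 0.22, edgeR adjusted p = 0.753). That interval reaches past the limit of a call, a log2 fold change of 0.20, on both sides. Of its 2351 exon bases 461 overlap the divergent noncoding gene Hand2os1, so reads of the pair could be shared or left uncounted, depending on a strand setting not given in the sources used here. Hand2os1 itself was 69.9 ± 8.62 CPM in WT and 66.2 ± 3.25 in TAZG197V, with a log2 fold change of -0.03 (edgeR adjusted p = 0.682). Hand1, the left ventricular partner of the embryo, had 0 or 1 counts in every library.

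The MEF2 proteins bind an A/T-rich element in muscle genes and are held silent by class IIa histone deacetylases until calcium signals release them. The 2 members differed. Mef2c (ENSMUSG00000005583, chromosome 13, 83504034 to 83667080, plus strand), the form needed first in heart development, was 70.3, 70.6, 67.4 and 88.9 CPM in WT 1 to WT 4. It was 49.7, 48.6, 52.3 and 63.2 CPM in TAZG197V 1 to 4. The number 4 library was the highest of each genotype, yet the highest mutant value stayed below the lowest WT value. The means were 74.3 ± 9.84 and 53.4 ± 6.66 CPM, and the fall in the fit was 28.7%, a log2 fold change of -0.49 (SE 0.0568, 95% interval -0.62 to -0.36, edgeR adjusted p = 0.000394). Within lane 7 the mean log2 difference was -0.52 and within lane 8 it was -0.43. Mef2c is also strong in neurons and endothelium, and both number 4 libraries carried the high brain marker sums. Without these 2 libraries the log2 fold change was -0.47 (edgeR adjusted p = 0.000702). Endothelial markers summed to 716.3 to 1001 CPM in WT and 573 to 750.8 in TAZG197V, with 2 of 6 called lower, and their part in the difference was not tested.

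Mef2a (ENSMUSG00000030557, chromosome 7, 67231163 to 67372858, minus strand), the form that is most abundant per length of the pair in these hearts, was 173.3 to 240.4 CPM in WT and 173.8 to 210.9 in TAZG197V. All mutant libraries lay inside the WT range. The log2 fold change was -0.08 (SE 0.104, 95% interval -0.32 to 0.16, edgeR adjusted p = 0.573), and it ran from -0.20 to 0.02 in the other fits. Of its 14681 exon bases 302 overlap Lysmd4, a gene called lower at -0.49 (edgeR adjusted p = 0.00428). Mef2d, the third muscle form, was 153.6 ± 15.7 CPM in WT and 158.1 ± 14.9 in TAZG197V (log2 fold change 0.02, edgeR adjusted p = 0.846), with 531 of 5985 exon bases shared with the noncoding gene 1700113A16Rik. Mef2b stayed at 17 counts or fewer in each library and was not tested. Per kilobase of exon, Mef2c held 10.5% ± 0.742 of the summed Mef2a, Mef2c and Mef2d level in WT and 7.91% ± 1.35 in TAZG197V, with no overlap, while the shares of Mef2a and Mef2d overlapped.

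The promoters of the 2 Mef2 genes and of Irx4 are shown because they pair a factor that differed with a paralog that did not and with another factor that fell. The windows end at the last base before the first exon, 5′ to 3′ on the strand of the gene, and come from RefSeq on build GRCm38.p6. Capitals mark the core NKX2-5 letters AAGTG on either strand, the one hit in these windows from a search for the motifs of the GATA, NKX2-5, T-box and MEF2 families:
Mef2c, chr13:83503784-83504033, plus strand: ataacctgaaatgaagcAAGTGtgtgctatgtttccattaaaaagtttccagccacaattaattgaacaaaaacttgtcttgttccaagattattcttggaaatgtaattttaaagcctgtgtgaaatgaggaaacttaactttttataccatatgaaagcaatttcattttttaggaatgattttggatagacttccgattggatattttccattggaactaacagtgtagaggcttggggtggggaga
Mef2a, chr7:67372859-67373108, minus strand: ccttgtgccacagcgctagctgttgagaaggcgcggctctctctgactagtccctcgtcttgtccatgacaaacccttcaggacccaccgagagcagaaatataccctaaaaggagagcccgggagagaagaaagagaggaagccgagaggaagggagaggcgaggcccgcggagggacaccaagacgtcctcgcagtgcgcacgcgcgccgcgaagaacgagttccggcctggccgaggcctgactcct
Irx4, chr13:73260247-73260478, plus strand: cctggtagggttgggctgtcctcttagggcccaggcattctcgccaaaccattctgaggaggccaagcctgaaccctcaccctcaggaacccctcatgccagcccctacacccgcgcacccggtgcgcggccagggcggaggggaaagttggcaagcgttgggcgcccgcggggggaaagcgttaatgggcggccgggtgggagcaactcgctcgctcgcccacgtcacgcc
The Mef2c window is A/T-rich, with 33.6% G and C, where those of Mef2a and Irx4 have 61.6% and 68.1%. Its 1 NKX2-5 match overlaps 1 of 2 E-boxes, the CANNTG element of basic helix-loop-helix factors, which the other 2 windows lack. Such matches are common: in the 250 bases before the start of 32851 RefSeq transcripts of the mouse, AAGTG was found in 40.7%, CANNTG in 66.2%, the GATA letters GATAA in 22.6%, the T-box letters AGGTGT in 11.8% and the MEF2 consensus in 1.69%, both strands searched. Of the 10 factors 7 had 9 such windows. Mef2c had 3 of them, of which only the one at the start of the gene is shown, and the second held 2 GATAA, 1 AAGTG and the AGGTGT match. GATAA was found in 2 of the 9, AAGTG in 4, AGGTGT in 1, CANNTG in 5 and the MEF2 consensus in 0. A match is only a run of letters, and its absence from these windows says nothing about binding.

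Irx4 (ENSMUSG00000021604, chromosome 13, 73260479 to 73269608, plus strand) is the Iroquois factor that marks ventricular muscle and holds back atrial myosin genes there. It was 28.1, 24.5, 28.1 and 27.5 CPM in WT 1 to WT 4 and 22.3, 22.4, 24.0 and 18.4 CPM in TAZG197V 1 to 4. The gap between the groups was narrow, with TAZG197V 3 at 24.0 just under WT 2 at 24.5, the lowest WT library. The means were 27.1 ± 1.71 and 21.8 ± 2.36 CPM, and the fall in the fit was 21.2%, a log2 fold change of -0.34 (SE 0.0605, 95% interval -0.48 to -0.20, edgeR adjusted p = 0.00296). Within lane 7 the mean log2 difference was -0.23 and within lane 8 it was -0.40. The size rested partly on TAZG197V 4: without it the log2 fold change was -0.23 (edgeR adjusted p = 0.0451), and without both number 4 libraries it was -0.22 (0.0338). Irx1 (0.16, adjusted p = 0.719) and Irx2 (0.32, adjusted p = 0.446), on the same chromosome, were not called, and neither were Irx3 (-0.20, adjusted p = 0.233) and Irx5 (-0.16, adjusted p = 0.438) on chromosome 8. Without WT 1 both of the last pair were called lower, Irx3 at -0.41 (adjusted p = 0.0338) and Irx5 at -0.38 (adjusted p = 0.0249). Of the 2762 exon bases of Irx3 124 overlap Irx3os. In lane 7 the mutant mean of Irx3 was above WT by 0.48 on the log2 scale and in lane 8 it was below, at -0.64, so the lanes went opposite ways.

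Hey2 (ENSMUSG00000019789, chromosome 10, 30832359 to 30842801, minus strand) is a Notch-dependent repressor that keeps atrial genes off in the compact wall of the ventricle. At 125 to 207 counts per library it was the least counted of the 10. Its CPM were 4.53, 4.18, 5.63 and 9.24 in WT 1 to WT 4 and 4.54, 4.45, 5.61 and 6.16 in TAZG197V 1 to 4. Libraries 1 to 3 of both genotypes covered the same range, and WT 4 stood alone. The log2 fold change was -0.22 (SE 0.141, 95% interval -0.54 to 0.11, edgeR adjusted p = 0.253), and without WT 4 it was 0.09. The related Notch targets Hey1 (0.14, adjusted p = 0.51) and Heyl (-0.15, adjusted p = 0.147) were not called either, but without WT 4 Heyl was called lower, at -0.30 (adjusted p = 0.0262).

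**Figure D4:**
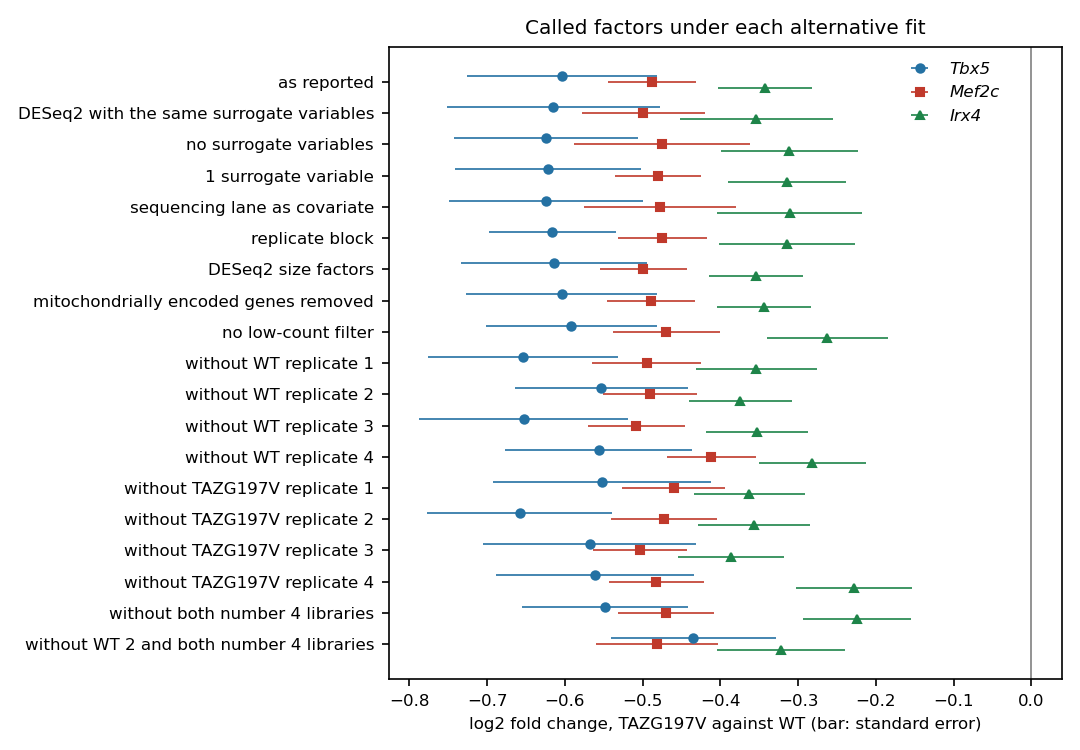
Log2 fold change of Tbx5, Mef2c and Irx4 in the fit reported and in 18 other fits (bar: standard error). All points lie below 0, and Irx4 comes nearest to it without TAZG197V 4 or without both number 4 libraries.

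Levels of different genes were compared per kilobase of exon, over all 8 libraries. Gata4 was highest at 32.2 CPM per kilobase and Nkx2-5 followed at 26.7. Then came Mef2a at 13.9, Tbx20 at 11.3, Hand2 at 11.0, Irx4 at 9.37, Gata6 at 7.91, Tbx5 at 4.28, Mef2c at 4.06 and Hey2 at 1.21. Their ranges over the 8 libraries were separate at only 3 steps of this order, below Nkx2-5, below Gata6 and below Mef2c, and neighbours elsewhere overlapped. Gata4 stood at percentile 93.7 of the genes tested and Hey2 at 30.8. Tbx5 and Mef2c, the 2 factors with the larger falls, were thus among the 3 lowest of the 10. The ratio counts all annotated exons, and the long exon totals of Mef2a (14681 bases) and Mef2c (15715 bases) lower it where shorter forms are used.

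For each factor that fell, the 3 genes closest in pattern were sought among 12354 tested genes with a mean scaled count of at least 50, by the root mean square difference of centred log2 CPM over the 8 libraries. Closest to Tbx5 were Ctso, Bcar3 and Calhm2, at 0.0973, 0.11 and 0.114 log2 units. Closest to Mef2c were Tmem181b-ps, 3110056K07Rik and Gm47547, at 0.0739, 0.0804 and 0.0813. Irx4 had the nearest neighbours, Sipa1, Dcun1d2 and Arhgap29, at 0.0481, 0.0524 and 0.0603. All 9 were called lower, with log2 fold changes from -0.75 for Bcar3 to -0.30 for Arhgap29. That direction comes from the choice itself, since the genes were picked for likeness to factors that fell in the same libraries. For comparison, the median difference over all candidates was 0.399 for Tbx5, 0.351 for Mef2c and 0.28 for Irx4.

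A wider list of 50 related heart factors held 42 genes that could be tested. Of these 13 were called lower and 0 higher, or 31%, where 33.5% of all genes tested were called and 15.1% lower. The median log2 fold change was -0.16. Unadjusted edgeR p-values were under 0.05 for 14. By size the falls were led by Tcf21, a marker and regulator of cardiac fibroblasts and epicardium, from 8.46 ± 1.02 to 5.29 ± 0.809 CPM (log2 fold change of -0.63, edgeR adjusted p = 0.00705). Rxra, the retinoid X receptor that partners nuclear receptors of fat and retinoid signalling, fell from 78.7 ± 4.77 to 52.4 ± 3.1 CPM (-0.61, adjusted p = 0.000221), and its libraries did not overlap. Wt1, a factor of the epicardium, was 3.73 ± 0.189 and 2.55 ± 0.66 CPM (-0.57, adjusted p = 0.0346), and Myocd, the SRF partner of smooth and heart muscle, 56.9 ± 12.2 and 38.3 ± 9.51 CPM (-0.56, adjusted p = 0.0342). Tcf21 and Rxra passed an adjusted p of 0.05 in 18 of 18 other fits, Myocd in 12 and Wt1 in 6. Fibroblast markers moved the same way, at 906.3 to 1579 CPM in WT and 634.3 to 878.5 in TAZG197V, and their part in the fall of Tcf21 was not tested. Epicardial markers summed to 4.7 to 27.7 CPM in WT and 6.43 to 15.6 in TAZG197V, with 0 of 4 called. The count of 13 was 8 without WT 2, and also 8 without TAZG197V 1, 2 or 3. Isl1, a factor of the early heart, had at most 0.137 CPM in a library and was not tested.

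Genes that bind, modify or signal to the 10 factors were taken as a second list. Of 29 tested, 13 were called, 2 higher and 11 lower, or 44.8% beside 33.5% of all genes (18.5% higher and 15.1% lower), with a median log2 fold change of -0.17. All 4 class IIa histone deacetylases that repress MEF2 were among those lower. Hdac4 was 37.4, 39.1, 22.7 and 31.1 CPM in WT 1 to WT 4 and 14.0, 15.9, 14.7 and 15.3 CPM in TAZG197V 1 to 4. Its mutant libraries lay close together and under every WT library (log2 fold change -1.05, SE 0.136, edgeR adjusted p = 0.000638). Of its 15813 exon bases 3536 overlap Gm26720, so the value is uncertain. Hdac7 fell from 47.9 ± 5.03 to 34.5 ± 2.18 CPM (-0.49, adjusted p = 0.00216). The falls of Hdac5 (-0.20, adjusted p = 0.0362) and Hdac9 (-0.21, adjusted p = 0.0476) were small, and they passed in only 12 and 5 of the 18 other fits. These 2 were named after their values were seen. Hdac5 shares 111 of 8780 exon bases with Mir8101 and Hdac7 29 of 6755 with Slc48a1. Mapk14, the p38 kinase that phosphorylates MEF2 proteins, fell from 94.9 ± 14.6 to 56.9 ± 1.98 CPM (-0.77, adjusted p = 0.000104), and Ncoa2, a coactivator of nuclear receptors and MEF2C, from 77.7 ± 9.16 to 62.2 ± 2.6 CPM (-0.34, adjusted p = 0.00914). Both falls were smaller without both number 4 libraries, at -0.61 for Mapk14 (edgeR adjusted p = 0.00017) and -0.23 for Ncoa2 (0.0239). On the other side Smarcd3, the chromatin-remodelling subunit that lets TBX5 and GATA4 act, rose from 23.6 ± 0.887 to 30.6 ± 1.82 CPM (0.38, adjusted p = 0.00297). Its exons share 2466 of 5120 bases with Chpf2 and a microRNA gene, which makes that value uncertain. Wwtr1, the Hippo-pathway coactivator also known as TAZ and unrelated to Tafazzin, rose from 80.5 ± 9.24 to 95.3 ± 5.21 CPM (0.28, adjusted p = 0.00482). Without WT 4 its log2 fold change was 0.18 (adjusted p = 0.0537), without both number 4 libraries it was 0.20 and short of the limit, and the call was lost also with no surrogate variables (0.24, 0.0656) or with lane as covariate (0.24, 0.0599).

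Textbook targets of the factors formed the third list, which includes all 6 heart muscle markers. Of 31 tested, 15 were called, 4 higher and 11 lower, or 48.4% beside 33.5% of all genes (18.5% higher and 15.1% lower), and the median log2 fold change was -0.20. Higher were Ankrd1, a stress-induced titin-binding repeat protein (2.01), the skeletal actin Acta1 (1.86), the slow myosin Myh7 (0.91) and the sodium-calcium exchanger Slc8a1 (0.77), with edgeR adjusted p-values of 0.00215, 0.00728, 0.0163 and 8.8e-05. Ankrd1 was 302.7 CPM in WT 4 against 1239 to 2031 in the other WT libraries, and without WT 4 its log2 fold change was 1.27 (adjusted p = 0.00224). Acta1 was 92.4 CPM in WT 4 against 297.9 to 329.5, and without WT 4 it was 1.37 (adjusted p = 0.00653). Myh7 was not called without WT 4 (0.47, adjusted p = 0.334) or without TAZG197V 4 (0.55, adjusted p = 0.261), nor with no surrogate variables (0.64, 0.212), with 1 of them (0.66, 0.177) or with no filter on low counts (0.55, 0.133). Of the 8616 exon bases of Myh7 1149 overlap Gm29015, Gm31251 and Mhrt, and of the 18807 of Slc8a1 304 overlap AC122399.1 and Gm11096, so both values are uncertain. Among those lower, Kcnj2, which carries the inward rectifier current, went from 78.4 ± 30.8 to 31.7 ± 2.94 CPM (-1.35, adjusted p = 0.000141). Its size rested partly on the number 4 libraries: without both of them Kcnj2 was -0.96 (edgeR adjusted p = 0.000193). Kcnd2, a channel of the transient outward current, went from 31.7 ± 15.9 to 16.8 ± 8.42 CPM (-0.96, adjusted p = 0.0027), and WT 4 and TAZG197V 4 were the highest of their genotypes. With no surrogate variables it was not called (-0.91, adjusted p = 0.113). The atrial light chain Myl7 had the largest fitted fall (-3.65, adjusted p = 0.0162), but it was 26.96, 384.6, 0.194 and 0.625 CPM in WT 1 to WT 4 and 0.387 to 1.28 in TAZG197V, so WT 1 and WT 2 held nearly all of its counts. Without WT 1 it was -0.65 (adjusted p = 0.227), and without WT 2 it was -3.90 (adjusted p = 0.0828). It passed an adjusted p of 0.05 in 10 of the 18 other fits. With WT 2 and both number 4 libraries left out, a setting chosen after the data were seen, 10 related factors, 13 cofactors and 18 targets were called.

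**Figure D5:**
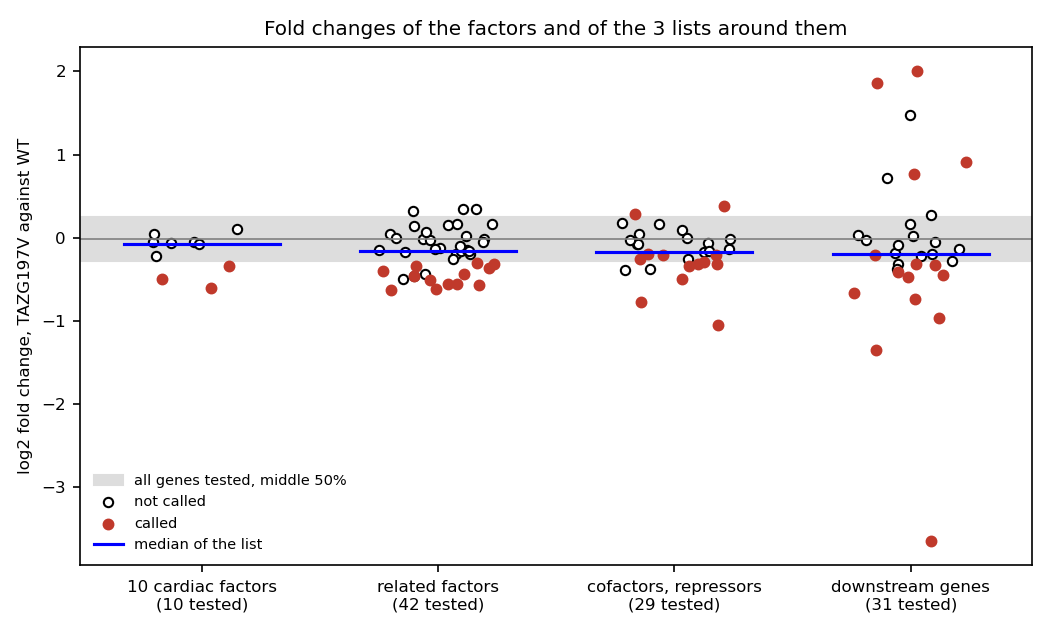
Log2 fold change of the 10 factors and of the tested genes of the 3 lists around them, with called genes filled, each list's median as a blue line and the middle 50% of all genes tested in grey. Called related factors all lie below 0, while called cofactors and targets lie on both sides.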

How the data were processed

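RNA-seq libraries were made by the authors from 500 ng of total RNA of heart tissue. Per the labels and the methods, the authors converted reads with bcl2fastq 2.20.0, checked them with FastQC 0.11.9, aligned them to mm10 with STAR 2.7.3a and counted reads over the exons of each gene with featureCounts (Subread 2.0.0). As deposited, each file gives raw counts by Ensembl gene ID with no scaling. Annotation release, strand setting and handling of reads with several alignments are not given in the sources used here, so overlapping genes are reported as uncertain. Rows of spike-ins were left out. Symbols, exon lengths and positions came from GENCODE M21 (GRCm38, the same assembly as mm10) and promoters from RefSeq on GRCm38.p6, in which Tbx5, Gata4 and Gata6 were not matched.

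For the analysis edgeR 4.0.16 was run in R 4.3.3. Low counts were filtered with filterByExpr, TMM gave the scaling, and 2 surrogate variables were estimated with svaseq (sva 3.50.0, seed 1) with genotype protected, as the study corrected for unwanted variation. Genotype was tested two-sided with the quasi-likelihood F-test over all 8 libraries, with Benjamini-Hochberg adjustment over all genes tested. The call rule is that of the study. The standard error is the log2 fold change divided by the square root of F, and 95% intervals use the t distribution of the fit. CPM are TMM-scaled and carry no correction for surrogate variables. Shares, orders, likeness and marker sums are descriptions without a test. Within-lane differences are means of log2 CPM with a prior count of 2.

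The 10 factors, the lists of related factors, cofactors and targets and the marker lists were chosen with earlier results of these data known. By rule the text names the 10 factors, their paralogs and overlapping genes, Taz, the 4 largest falls and 4 largest rises called in each list and the 3 genes closest to each called factor, of which 1 gene is not reported here. The fit was repeated with DESeq2 1.42.0 on the same surrogate variables, with 0 or 1 of them, with sequencing lane or a replicate block instead, with size factors of DESeq2, without the genes of the mitochondrial genome, without the filter on low counts, with calls on adjusted p alone or at a fold change of 1.5 or more, and without each library in turn or both number 4 libraries. Libraries of a genotype differed by a chi-square of 10.2 or more per gene (summed counts of 10 or more), so none repeated another. WT 4 stood furthest apart: its pairs gave 123 to 156, the other WT pairs 16.6 to 31.1 and the TAZG197V pairs 10.2 to 34.8.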

Additional observations from a re-analysis of the deposited data

Results flagged for a closer look

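In 11 of 100 sets of 4 libraries examined, where 5 are expected by chance, the gap between 1 library and the nearest of the others took up a larger share of the range in log2 CPM than Dixon's critical value at 95% for a set of 4. The share is given in brackets. Among the 10 factors this held for Mef2c in WT (0.832), where WT 4 was high at 6.48 against 6.08 to 6.14. It held also for Irx4 in WT (0.851), where WT 2 was low at 4.62 against 4.79 to 4.82. Both genotype differences without these libraries are -0.41 for Mef2c (edgeR adjusted p = 0.000965) and -0.37 for Irx4 (0.00436).

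Among paralogs and targets, Mef2d in WT was high in WT 4 (0.838), at 7.47 against 7.16 to 7.21, and Tbx18 in WT was low in WT 4 (0.835), at 1.63 against 2.50 to 2.67. Acta1 in WT was low in WT 4 (0.921), at 6.53 against 8.22 to 8.36. Myl7 in TAZG197V was high in TAZG197V 4 (0.843), at 0.43 against -1.14 to -0.89.

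Summed marker levels gave 5 further sets. Endothelial markers were high in WT 3 (0.861), at 9.97 against 9.48 to 9.55, and fibroblast markers in WT 2 (0.887), at 10.63 against 9.82 to 9.91. Epicardial markers were low in TAZG197V 1 (0.947), at 2.68 against 3.89 to 3.96. Brain markers were high in WT 4 (0.906), at 6.75 against 3.83 to 4.10, and in TAZG197V 4 (0.942), at 7.93 against 3.51 to 3.76.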

How the results depend on the processing

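Across 20 alternatives, 249 of 280 comparisons of the 4 counts and the 10 factors with an alternative kept their direction and side of the threshold or, for counts, stayed within 1.5 times. Of the rest, 13 changed a count or a call and 18 changed sign, in 6 factors, none of them called. A fold change of at least 1.5 left 1 of the 3 called factors, Tbx5, and removed Mef2c (-0.49) and Irx4 (-0.34). It left 2 of 13 related factors, 2 of 13 cofactors and 9 of 15 targets. Related factors called were 7 without surrogate variables, 8 with lane as covariate and 8 with a replicate block. With 1 library left out, 3 factors were called each time, 8 to 15 related factors, 9 to 12 cofactors and 12 to 17 targets. Replicate numbers would be taken as pairs only if every same-numbered correlation of deviations passed 0.1; they were 0.277, 0.0436, 0.28 and 0.416, so number 2 did not pass, and unlike numbers gave -0.464 to 0.317. With the replicate block 3 factors, 11 cofactors and 16 targets were called. Over all genes, the fold change of 1.5 called 1843 in place of 5060. Of 103 other genes of the lists, 2058 comparisons gave 1718 with no change, 166 that lost and 59 that gained a call, and 115 that changed sign, in 27 genes. In 1 of these 115 a call was involved, the gap junction gene Gja1, at 0.27 without both number 4 libraries against -0.03. Hey2, with 125 to 207 counts per library, had the fewest counts of the 10 factors and so the largest counting error.

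Among the factors and paralogs named, these log2 fold changes changed sign, and no value of the opposite sign was called. At the lower ends of their ranges without 1 library, Irx3 and Irx5 were called. With no filter on low counts Gata4 was 0.031, Tbx20 -0.025, Irx3 0.097 and Irx5 0.053. Without both number 4 libraries Gata4 was 0.079, Tbx20 -0.024, Hey2 0.046, Irx3 0.24 and Irx5 0.16, and with WT 2 left out too Gata4 was 0.027, Tbx18 -0.018, Irx1 -0.19 and Hey1 -0.015. Tbx20 was -0.0034 without surrogate variables, -0.0032 with 1 and -0.00046 with lane. With 1 library left out Gata4 ran from -0.11 to 0.076, Gata6 from -0.13 to 0.039, Tbx20 from -0.026 to 0.081, Hand2 from -0.12 to 0.062, Mef2a from -0.20 to 0.020, Hey2 from -0.35 to 0.094, Tbx18 from -0.077 to 0.23, Mef2d from -0.037 to 0.12, Irx1 from -0.15 to 0.30, Irx2 from -0.083 to 0.56, Irx3 from -0.41 to 0.16, Irx5 from -0.38 to 0.099 and Hand2os1 from -0.15 to 0.036.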
